A study of Homo sapiens with 6 samples.

Results

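Kinetochore, spindle checkpoint, spindle, cytokinesis and condensin genes were examined in BE(2)-C_tetoff_KDM4C cells, a human neuroblastoma line (BE(2)-C) that carries a tet-off construct for the histone demethylase KDM4C. The genes were taken from a list of 58 mitotic genes, and 41 of them had a probe set annotated to exactly that symbol, among 14884 named genes and 53617 probe sets in all. Total RNA of 6 samples was measured on 6 Affymetrix whole-transcript arrays, 3 from cells kept with doxycycline, which holds the construct silent, and 3 from cells kept without it, all for 6 days. Both groups carried the construct and were grown in DME/F-12 with dialyzed serum. The labels name neither the promoter of the construct nor whether the line is 1 clone, and no array of cells without the construct was analysed here, so induction of KDM4C and withdrawal of doxycycline cannot be told apart. In total RNA of a culture, more cells in mitosis and more transcript per cell cannot be told apart either. Values are log2 expression values as the authors deposited them, and every difference is that of no doxycycline minus doxycycline.

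The 17 listed genes without a named probe set are not analysed here. They are NUF2, SPC24, SPC25, DSN1, MIS12, ZWILCH, CENPE and CENPF of the outer kinetochore, UBE2C, TPX2, DLGAP5, ASPM, FAM83D and ANLN, and the condensin subunits NCAPD2, NCAPG and NCAPH. The outer kinetochore and condensin are therefore represented by few of their subunits.

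KDM4C itself was at 8.97, 9.08 and 9.02 without doxycycline and at 7.71, 7.77 and 7.80 with it, so the higher level was in the group in which a tet-off construct is on. The groups of arrays did not overlap for this gene (log2 difference 1.27, SE 0.07, limma adjusted p = 0.0079, and 0.0311 to 0.0696 with 1 array left out). The array medians lay between 3.94 and 3.96. All 41 members had a mean above the median probe set, and each had a single named probe set. All 8 noradrenergic neuroblastoma markers measured were bright, and 0 passed the test. At an unadjusted limma p below 0.05, TH and DBH, enzymes of catecholamine synthesis, were higher without doxycycline (differences 0.34 and 0.28) and the granin CHGA lower (-0.40). Those 3 and GATA2 (0.20) had groups that did not overlap, and PHOX2A, ISL1, GATA3 and HAND2 were at 0.15, 0.13, 0.02 and -0.04 with overlap. Of 24 markers of other cell types, 12 were measured and 0 passed the test. Their mean level was 4.84 to 4.97 without doxycycline and 4.88 to 4.92 with it. Without doxycycline TYROBP, PECAM1, VWF, KDR, KRT19 and SOX10 lay below the median probe set, at 2.91 to 3.81, and EPCAM, KRT8, S100B, CD68 and KRT18 above it, at 4.25, 4.72, 5.66, 5.75 and 7.55. A dimmer KRT18 probe set had a mean of 3.47 and a difference of -0.15, against 0.13 for the brighter one. LUM, listed as a fibroblast marker, was bright on all arrays, at 11.0 to 11.1 without and 11.3 to 11.4 with doxycycline, and was the single marker of these 12 with an unadjusted limma p below 0.05. The part of any of these markers in the differences of the mitotic genes was not tested.

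A kinetochore is the protein assembly on each centromere that binds spindle microtubules. Its inner layer sits on nucleosomes that hold the histone variant CENPA, and its outer layer, built around the NDC80 complex and KNL1, makes the contact with microtubules. Until every kinetochore is attached, the spindle checkpoint proteins BUB1, BUB1B, BUB3, MAD2L1 and TTK hold back the anaphase-promoting complex. Condensins and topoisomerase compact and disentangle the chromosomes, and the midzone and midbody proteins PRC1 and CEP55 act in cytokinesis. Many of these genes are transcribed late in the cell cycle, from promoters with a cell cycle genes homology region (CHR element) and CCAAT boxes, which bind the DREAM and MuvB complexes and the factor NF-Y.

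Mitotic genes almost all had small positive log2 differences (no doxycycline minus doxycycline), and no single member passed the test over all probe sets. Of the 41 members, 40 had a positive log2 difference and 1, CENPQ, a negative one. The median was 0.24 and the range -0.06 to 0.72, against a median of 0.01 over all probe sets and -0.002 over all named genes. Positive differences made up 97.6% of the members, 52.0% of all probe sets and 49.4% of the named genes. In 31 members every array without doxycycline lay above every array with it, which was so for 10.2% of all probe sets and for 15.5% of the named genes above the median probe set. The opposite order held for 0 members and for 9.09% of all probe sets.

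At a limma adjusted p below 0.05, 0 members were higher and 0 lower, where 0.248% and 0.0933% of all probe sets were called in these directions. At an unadjusted limma p below 0.05, 27 members were higher and 0 lower, where 6.70% and 5.73% of all probe sets were. Among the named genes above the median probe set, as all members are, 10.6% were higher at this p. The members are co-expressed on the same 6 arrays, so their counts are not counts of independent genes. Of the 41 differences, 15 were at least 0.3, 21 lay between 0.1 and 0.3, and 5 were below 0.1. Only PTTG1 reached a change of 1.5-fold. The number of calls depended on which probe sets were fitted and how: 2 members, CEP55 and CDCA8, were higher when dim probe sets were left out (0.761% of those fitted), and 6 with trend and robust moderation (0.476%). When only the 16098 probe sets with a gene symbol were fitted, 12 were higher (1.65% of those fitted). In order of adjusted p they were CEP55, CDCA8, SGO2, NEK2, NDC80, SPAG5, BUB1, PTTG1, MKI67, CENPO, CDCA2 and CDCA5. With any 1 array left out of the fit over all probe sets, 0 members were called and 22 to 27 were higher at an unadjusted p below 0.05. Without doxycycline replicate 1 these were 25 members, beside 2884 of all 53617 probe sets. Without doxycycline replicate 2 they were 24 members, beside 3305 probe sets.

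**Figure D1:**
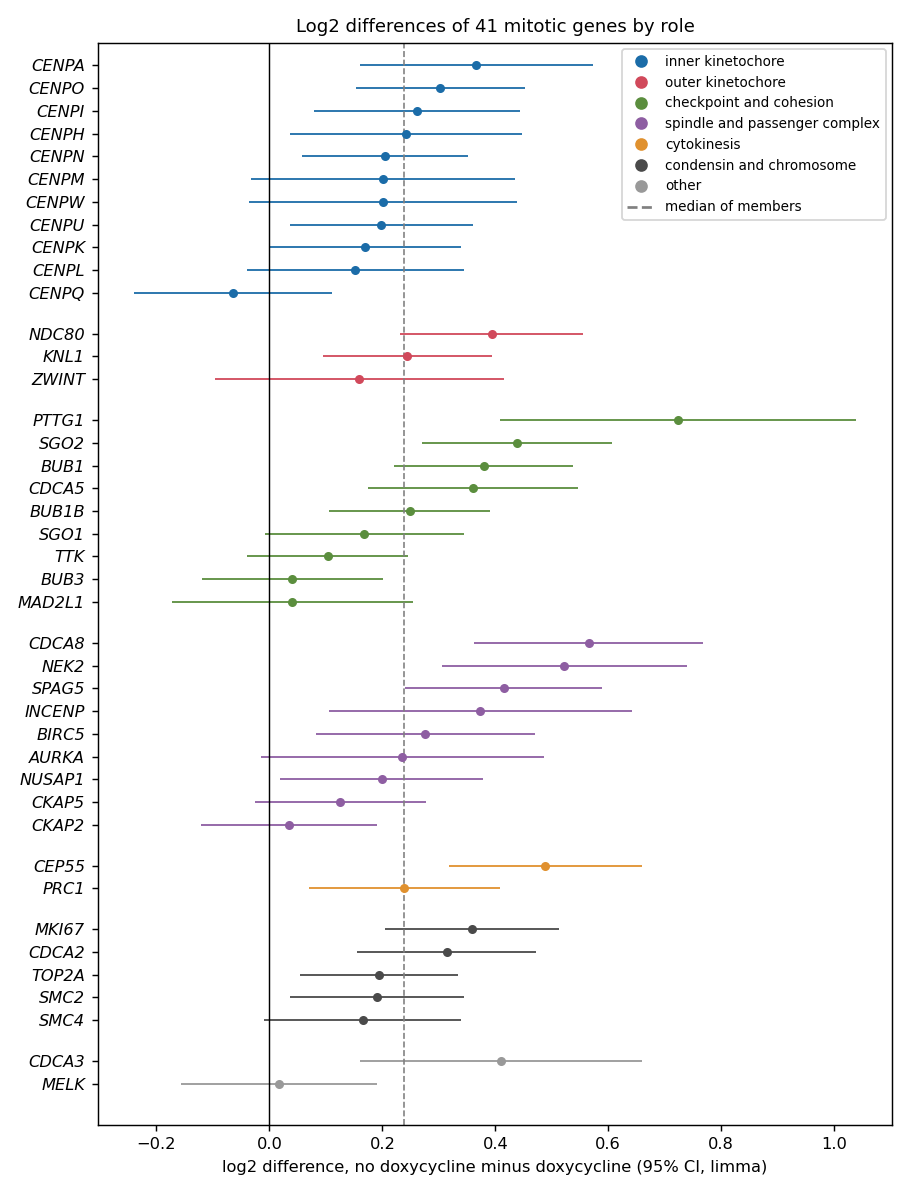
Log2 differences (no doxycycline minus doxycycline, horizontal axis) of the 41 members with 95% confidence intervals of the limma fit, grouped and coloured by role; the dashed line is their median. Of the 41 intervals, 27 lie above 0, and CENPQ is the single gene with a negative difference.

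The median member lay on the same side of its mean on all 3 arrays of a group. For 39 of 41 members the highest of the 6 values came from an array without doxycycline, and for 40 of 41 the lowest came from an array with it. These 2 counts largely restate the direction of the differences, and no share over all probe sets was computed. An extreme value can come from 1 array, so they do not show that the arrays of a group were alike. Relative to each gene's mean over the 6 arrays, the members' median deviation was 0.09, 0.15 and 0.12 on replicates 1, 2 and 3 without doxycycline and -0.13, -0.12 and -0.12 on those with it. Replicate 2 without doxycycline held the highest value of 20 members, more than the 9 and 10 of the others. Without that array the median difference of the members was 0.21, and 39 of 41 remained positive in sign.

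**Figure D2:**
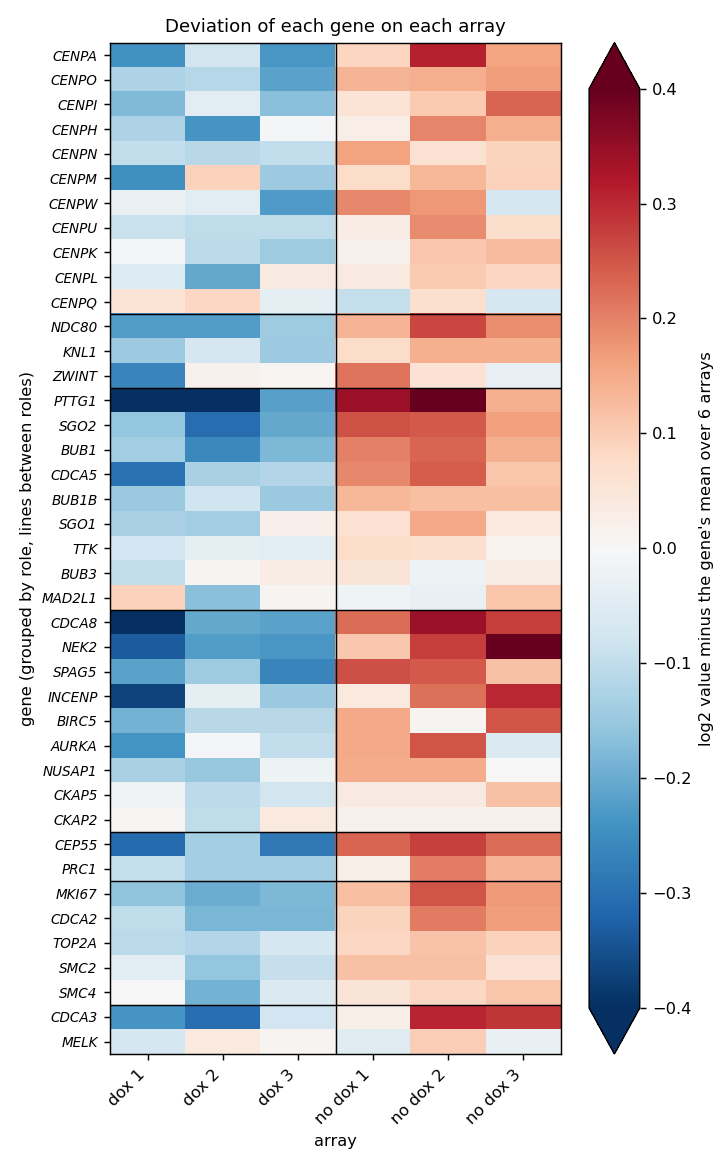
Deviation of each member's log2 value from its mean over the 6 arrays (colour, scale limited to 0.4 in each direction), with genes in rows grouped by role and arrays in columns. The 3 columns without doxycycline are mostly above the gene's mean, with member medians of 0.09, 0.15 and 0.12, and the 3 with doxycycline mostly below it.

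The promoters of the 4 members with the smallest p are shown because CHR elements and CCAAT boxes are described for promoters of mitotic genes. These 4 were picked after their values were seen, since the rule set for printing asked for called members and none was called. The 250 bases upstream of the RefSeq start (GRCh38.p14) are given 5′ to 3′, all on the plus strand, for CEP55 (chr10:93496362-93496611), CDCA8 (chr1:37692266-37692515), SGO2 (chr2:200525892-200526141) and NDC80 (chr18:2571307-2571556). Capitals mark CHR letters (TTTGAA or TTCGAA) and CCAAT boxes (CCAAT), each on either strand.
CEP55: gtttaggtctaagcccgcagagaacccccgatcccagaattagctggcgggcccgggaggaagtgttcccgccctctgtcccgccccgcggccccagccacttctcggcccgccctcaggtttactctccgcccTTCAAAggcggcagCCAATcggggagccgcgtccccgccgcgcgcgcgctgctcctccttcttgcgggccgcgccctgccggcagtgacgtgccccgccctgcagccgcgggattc
CDCA8: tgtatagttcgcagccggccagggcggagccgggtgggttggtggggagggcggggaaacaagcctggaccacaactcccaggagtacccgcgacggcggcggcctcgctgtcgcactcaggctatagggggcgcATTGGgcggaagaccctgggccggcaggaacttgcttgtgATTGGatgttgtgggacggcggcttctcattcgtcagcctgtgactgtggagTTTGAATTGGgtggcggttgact
SGO2: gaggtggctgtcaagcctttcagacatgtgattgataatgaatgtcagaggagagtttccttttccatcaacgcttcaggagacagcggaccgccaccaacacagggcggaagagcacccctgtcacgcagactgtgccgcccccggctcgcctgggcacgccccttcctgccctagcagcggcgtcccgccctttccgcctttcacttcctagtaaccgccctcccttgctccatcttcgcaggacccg
NDC80: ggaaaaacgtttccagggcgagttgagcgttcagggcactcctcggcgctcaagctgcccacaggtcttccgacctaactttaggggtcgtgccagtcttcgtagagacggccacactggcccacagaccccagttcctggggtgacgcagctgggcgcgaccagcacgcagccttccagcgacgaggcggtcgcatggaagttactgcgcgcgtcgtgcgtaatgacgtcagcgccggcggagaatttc
The CDCA8 promoter held a CHR match whose last base lay 18 bases before the start, sharing 1 base with a CCAAT box, and 3 CCAAT boxes in all. The CEP55 match lay 111 bases before the start, with 1 CCAAT box beside it. The windows of SGO2 and NDC80 held neither set of letters, which says nothing of the factors that bind there.

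Of the 41 members, 32 were matched by symbol in the RefSeq promoter table, and a gene with several starts was counted as holding a motif where any of its windows did. A CHR match was present in 12 of the 32 (37.5%), against 17.2% of all 27305 genes in the table. The last base lay within 30 bases of the start in 8 members (25.0%), namely CENPA, ZWINT, CDCA5, BUB1B, CDCA8, INCENP, PRC1 and MKI67, against 2.08% of all genes. This distance was chosen after the positions were seen. A CCAAT box was present in 22 members (68.8%, against 37.0% of all genes), and 2 or more in 13 (40.6%, against 11.5%). The 12 members with a CHR match had log2 differences from 0.13 to 0.57 (median 0.30), and the 20 without one from -0.06 to 0.72 (median 0.20). The 22 with a CCAAT box had a median of 0.22 and the 10 without one a median of 0.25. The ranges overlapped widely in both divisions. These shares describe letters in a window and were not tested.

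Inner kinetochore genes had a median difference of 0.20, 10 of the 11 measured had a positive difference, and 0 passed the test. In 7 of these 11 every array without doxycycline lay above every array with it (10.2% of all probe sets), and 7 were higher at an unadjusted limma p below 0.05 (6.70% of all probe sets). CENPA, the centromeric histone H3 variant, was at 7.11, 7.33 and 7.18 without doxycycline and at 6.78, 6.95 and 6.79 with it, a difference of 0.37 (SE 0.09, 1.29-fold, limma adjusted p = 0.178). CENPO, a subunit of the constitutive centromere network, was tight in both groups, at 8.45, 8.46 and 8.48 against 8.19, 8.20 and 8.10 (difference 0.30, SE 0.06, limma adjusted p = 0.137). All arrays of these genes were separated by group.

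CENPI and CENPH, which belong to the centromere network with CENPK and CENPM, had differences of 0.26 and 0.24. CENPN, a reader of CENPA nucleosomes, was at 8.82, 8.72 and 8.75 against 8.56, 8.55 and 8.56, without overlap. Its difference was 0.21 (SE 0.06, limma adjusted p = 0.260). CENPU and CENPK were at 0.20 and 0.17, again without overlap. CENPM, CENPW (the partner of CENPT) and CENPL, at 0.20, 0.20 and 0.15, had overlapping groups. With doxycycline replicate 1 left out CENPM was at 0.13, and with doxycycline replicate 2 left out CENPL was at 0.09. CENPQ was at 7.49, 7.65 and 7.52 without and 7.64, 7.67 and 7.55 with doxycycline. Its groups overlapped, and its difference of -0.06 had a 95% confidence interval of -0.24 to 0.11. CENPO, CENPQ and CENPU are subunits of the same subcomplex, and their differences were 0.30, -0.06 and 0.20.

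All 3 outer kinetochore genes measured had positive differences (median 0.24). NDC80, the microtubule-binding subunit after which its complex is named, was at 7.99, 8.12 and 8.04 without doxycycline and at 7.63, 7.63 and 7.71 with it (difference 0.39, SE 0.07, 1.31-fold, limma adjusted p = 0.0911). KNL1, the scaffold that recruits BUB proteins, was at 10.40, 10.47 and 10.47 against 10.18, 10.26 and 10.18 (difference 0.24, SE 0.06). Neither gene's groups overlapped. ZWINT, which links KNL1 to the proteins that recruit dynein, was at 0.16 with overlapping groups (95% confidence interval -0.10 to 0.42). Its difference was 0.07 with doxycycline replicate 1 left out and 0.09 with no doxycycline replicate 1 left out.

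**Figure D3:**
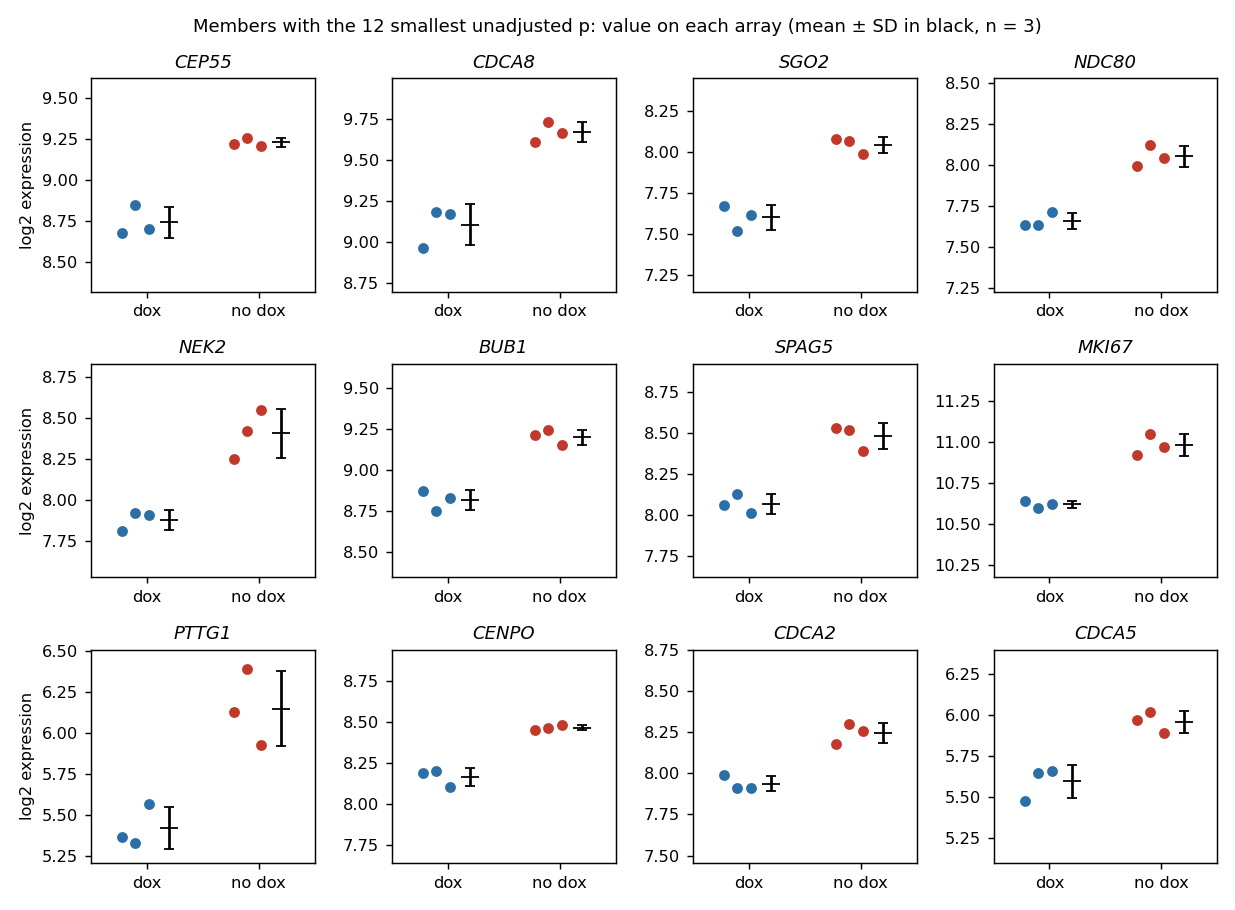
Log2 expression of the 12 members with the smallest unadjusted p on each of the 6 arrays, 3 with doxycycline (blue) and 3 without (red), with the mean and SD of each group in black; all panels span the same range on the log2 axis. In every panel all red points lie above all blue points, which picking genes by small p in these same values favours. PTTG1 has the widest spread (SD 0.23 without doxycycline).

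Checkpoint and sister cohesion genes had the widest range of differences, 0.04 to 0.72, with a median of 0.25, and all 9 measured were positive. PTTG1 (securin, the inhibitor of separase) was at 6.13, 6.39 and 5.93 without doxycycline and at 5.37, 5.33 and 5.57 with it. Its difference of 0.72 was the largest of the members (SE 0.13, 1.65-fold, limma adjusted p = 0.104). Its SD of 0.23 without doxycycline was the largest as well, and with 1 array left out the difference lay between 0.60 and 0.83. PTTG1 has near-identical copies in the genome that a probe set may not separate, and PTTG2, which has its own row, was at 0.15 with overlapping groups.

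The shugoshins protect centromeric cohesion. SGO2 was at 8.08, 8.07 and 7.99 against 7.67, 7.52 and 7.62 (difference 0.44, SE 0.07, limma adjusted p = 0.0768), and SGO1 at 8.89, 8.98 and 8.87 against 8.70, 8.69 and 8.85 (difference 0.17, SE 0.07, limma adjusted p = 0.425). Groups did not overlap for either, and their 95% confidence intervals, 0.27 to 0.61 and -0.01 to 0.34, did. CDCA5 (sororin, which stabilises cohesin on chromatin) had a difference of 0.36, with 5.97, 6.02 and 5.89 against 5.48, 5.65 and 5.66.

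Among the checkpoint proteins proper, BUB1 had the largest difference. This kinase was at 9.21, 9.24 and 9.15 without doxycycline and at 8.87, 8.75 and 8.83 with it (difference 0.38, SE 0.07, limma adjusted p = 0.0941). BUB1B, the BUBR1 subunit of the mitotic checkpoint complex, was at 8.86, 8.85 and 8.85 against 8.58, 8.65 and 8.58 (difference 0.25, SE 0.06). TTK, the MPS1 kinase, was at 0.10 (95% confidence interval -0.04 to 0.24), and all its arrays without doxycycline lay above those with it. BUB3, the partner of BUB1 and BUB1B, and MAD2L1, the inhibitor of CDC20, had overlapping groups. BUB3 was at 10.17, 10.10 and 10.15 against 10.02, 10.13 and 10.15, and MAD2L1 at 8.69, 8.68 and 8.82 against 8.80, 8.54 and 8.72. Both differences were 0.04, with 95% confidence intervals of -0.12 to 0.20 and -0.17 to 0.25. With 1 array left out they lay between -0.00053 and 0.064 for BUB3 and between -0.033 and 0.097 for MAD2L1.

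Spindle and chromosomal passenger genes had a median difference of 0.28, and the 9 measured were all positive (52.0% of all probe sets were). In 7 of them every array without doxycycline lay above every array with it (10.2% of all probe sets). CDCA8 (borealin) was at 9.61, 9.73 and 9.66 without doxycycline and at 8.96, 9.18 and 9.17 with it (difference 0.57, SE 0.08, 1.48-fold, limma adjusted p = 0.0629). The other passenger subunits were INCENP, the scaffold of the complex, at 6.93, 7.11 and 7.19 against 6.52, 6.85 and 6.74 (difference 0.37), and BIRC5 (survivin) at 7.30, 7.16 and 7.40 against 6.96, 7.04 and 7.04 (difference 0.28). The kinase of this complex, AURKB, is among the genes of the wider list and is described with them. All 4 subunits were thus measured and had positive differences.

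NEK2, a centrosomal kinase, was at 8.25, 8.42 and 8.55 without doxycycline and at 7.81, 7.92 and 7.91 with it (difference 0.52, SE 0.09, 1.44-fold, limma adjusted p = 0.0912). SPAG5 (astrin, a spindle and kinetochore protein) was at 8.53, 8.52 and 8.39 against 8.06, 8.13 and 8.01 (difference 0.41, SE 0.07, limma adjusted p = 0.0941). Both were separated by group on all arrays. NUSAP1, which binds spindle microtubules near chromatin, and the microtubule polymerase CKAP5 had differences of 0.20 and 0.13, also without overlap. AURKA, the kinase of spindle poles, was at 7.11, 7.21 and 6.90 against 6.72, 6.95 and 6.86. Its groups overlapped, with a difference of 0.24 (95% confidence interval -0.02 to 0.49). CKAP2 was at 9.15 on all 3 arrays without doxycycline and at 9.14, 9.03 and 9.17 with it, a difference of 0.03.

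Both cytokinesis genes measured were higher on every array without doxycycline than on any with it, an order found for 10.2% of all probe sets. CEP55, a midbody protein that recruits the abscission machinery, was at 9.22, 9.26 and 9.21 without doxycycline and at 8.68, 8.85 and 8.70 with it (difference 0.49, SE 0.07, 1.40-fold). It had the smallest limma adjusted p of the members, 0.0601, and with 1 array left out this p lay between 0.116 and 0.200. PRC1, which bundles midzone microtubules, was at 9.77, 9.95 and 9.88 against 9.65, 9.61 and 9.61 (difference 0.24, SE 0.07, limma adjusted p = 0.256).

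Condensin and chromosome genes had a median difference of 0.19. In all 5 measured every array without doxycycline lay above every array with it (10.2% of all probe sets). MKI67, the proliferation antigen that coats mitotic chromosomes, was at 10.92, 11.05 and 10.97 without doxycycline and at 10.64, 10.60 and 10.62 with it (difference 0.36, SE 0.06, 1.28-fold, limma adjusted p = 0.102). CDCA2 (Repo-Man, which brings a phosphatase to chromatin) was at 8.18, 8.30 and 8.26 against 7.99, 7.91 and 7.91 (difference 0.31). TOP2A, the topoisomerase that separates entangled DNA, was at 11.25, 11.28 and 11.26 against 11.06, 11.05 and 11.10 (difference 0.19, SE 0.06). SMC2 and SMC4, the ATPase pair shared by both condensins, had like differences of 0.19 and 0.17. The last 2 members were CDCA3, an adaptor for WEE1 degradation, at 0.41 with non-overlapping groups, and the kinase MELK, at 7.88, 8.03 and 7.90 against 7.86, 7.97 and 7.94. The difference of MELK was 0.02 (95% confidence interval -0.16 to 0.19).

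The rest of the machinery, 53 other genes listed for the same structures, included genes that passed the test. Of 39 measured, 36 had positive differences (92.3%, against 52.0% of all probe sets), and the median was 0.17. At a limma adjusted p below 0.05, 6 rose and 0 fell, where 0.248% and 0.0933% of all probe sets were called in these directions. Part of this list was known to be higher in these data when it was written, so its direction is no independent evidence. ESPL1 (separase, which cleaves cohesin and is held by PTTG1) was at 8.17, 8.33 and 8.25 without doxycycline and at 7.55, 7.49 and 7.63 with it. It rose by 0.69 (SE 0.08, 1.62-fold, limma adjusted p = 0.0307). KIF14, a cytokinesis kinesin, rose by 0.53 (SE 0.07, limma adjusted p = 0.0469), from 9.15, 9.13 and 9.01 to 9.58, 9.66 and 9.66. The others were CDC20 (0.66), the target of the checkpoint, KIF20A (0.57), HMMR (0.56) and AURKB (0.55). With any 1 array left out, 0 of these 6 passed.

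Several genes of that wider list stood beside members in the same structure. HJURP, the chaperone that deposits CENPA, was at 9.52, 9.59 and 9.51 against 9.02, 9.29 and 9.22 (difference 0.36, limma adjusted p = 0.181), beside the 0.37 of CENPA. CENPC, the inner kinetochore scaffold, was at 7.94 ± 0.07 without and 8.09 ± 0.06 with doxycycline (SD, n = 3 each). Its difference was -0.16 (limma adjusted p = 0.435). It was the single gene of the 39 whose arrays without doxycycline all lay below those with it (9.09% of all probe sets). The opposite order held for 27 of the 39 (69.2%). It held for 10.2% of all probe sets and for 15.5% of the named genes above the median probe set. SKA1, which helps NDC80 hold microtubules, was at 0.47, and KIF4A, a chromosome kinesin, at 0.32. The cohesin subunits SMC1A, RAD21 and SMC3 were at 0.15, 0.09 and 0.01.

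Genes of DNA replication and of the G1 phase were set beside the mitotic genes. Of 20 S phase genes measured, 14 had positive differences, 0 passed the test, 3 were higher (6.70% of all probe sets) and 1 lower at an unadjusted limma p below 0.05, and the median was 0.06. CDT1 and MCM5, which license replication origins, had differences of 0.39 and 0.23. CCNE2 (cyclin E2) was at -0.20 and SLBP, the histone mRNA stem-loop binder, at -0.12. In 5 of the 20 (25.0%) all arrays without doxycycline lay above those with it. This order held for 10.2% of all probe sets and for 15.5% of the named genes above the median probe set. Of those named genes, 10.6% were higher at an unadjusted limma p below 0.05. The counts in the lower direction, 2 without overlap and 1 at an unadjusted p below 0.05, were near the 9.09% and 5.73% of all probe sets. Of 7 genes of G1 and arrest, 4 were positive and 0 passed (median 0.01). CCNG2 and RBL1 were at 0.16 and 0.15, and CCND2 and CCND3 at -0.22 and -0.04. The CCND2 probe set was dim (3.54 and 3.76), and the mean of the gene's 2 probe sets gave -0.11. No test was made of a difference between these lists and the mitotic genes.

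**Figure D4:**
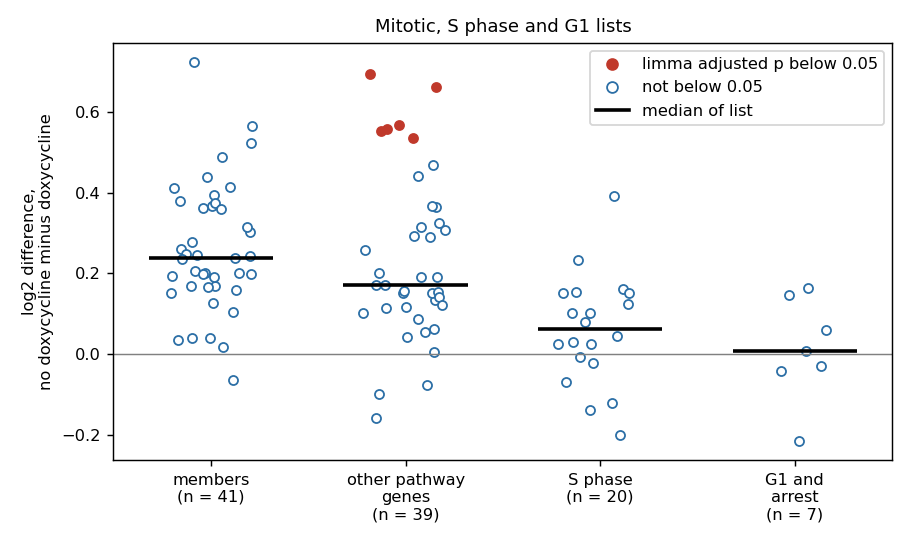
Log2 differences (no doxycycline minus doxycycline, vertical axis) of the 41 members, 39 other genes of the same structures, 20 S phase genes and 7 genes of G1 and arrest, 1 point per gene, spread sideways for visibility. Filled points are the 6 genes past a limma adjusted p of 0.05, and bars are the medians of 0.24, 0.17, 0.06 and 0.01.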

How the data were processed

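The authors deposited log2 expression values, 1 for each probe set on each array, and the submitters' processing notes name Partek, with no version. How background was corrected and probes were normalized and summarized, and on which genome build, is not given in the sources used. The log2 scale was read from the range of 2.12 to 14.3. Gene names came from GEO's platform annotation (16098 with 1 symbol, 14884 genes), and the probe set with the highest mean over 6 arrays stood for a gene. All 53617 probe sets were fitted with limma 3.58.1 (lmFit, eBayes) in R 4.3.3, contrast no doxycycline minus doxycycline, no covariate, Benjamini-Hochberg adjustment over all of them, threshold 0.05. The steps were tested on simulated data. The number of arrays limits precision. The labels call the 3 samples of a group independent without naming separate cultures, so p-values measure the spread between these samples. A two-sided exact test of 3 against 3 cannot go below p = 0.1, and none was used. Members, roles and lists were chosen with earlier results of these data known. Named genes are all members and KDM4C, of the wider list those past the threshold and the smallest p of each role, and of the S phase and G1 lists the 2 smallest p in each direction; CENPC, PTTG2, cohesin subunits and cell markers were added after their values were seen. Promoters are from RefSeq. The alternatives were a replicate block, quantile normalization, dim probe sets left out, trend and robust moderation, named probe sets only, averaged probe sets and each array left out.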

Additional observations from a re-analysis of the deposited data

How the results depend on the processing

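The direction of 37 of the 41 members was the same under every alternative run. The others were BUB3 (-0.00053 to 0.064), MAD2L1 (-0.033 to 0.097), CKAP2 (-0.0052 to 0.062) and MELK (-0.031 to 0.047), whose differences crossed 0 with 1 array left out. The members' median lay between 0.21 and 0.27 with 1 array left out. Of the members, 2 were called without dim probe sets, 6 with trend and robust moderation and 12 with named probe sets only; 0 were called with quantile normalization. All probe sets called numbered 183, 311 without dim ones, 385 with trend and robust moderation, and 0 to 15 with 1 array left out (15 without doxycycline replicate 3 and 13 without no doxycycline replicate 1). The 6 other pathway genes fell to 0 with any 1 array left out. KDM4C lay between 1.24 and 1.29 with 1 array left out, and its limma adjusted p rose to between 0.0597 and 0.0696 without doxycycline replicate 1 or 2 or no doxycycline replicate 2 or 3. The replicate numbers come from the labels, and whether same-numbered arrays were paired was not settled here. Over all probe sets, deviations of same-numbered arrays correlated at -0.01, -0.01 and 0.04. Many of these probe sets are dim, so such values cannot exclude pairing. With the replicate block the SE of CENPA was 0.069, against 0.086 in the main fit, and that of CEP55 was 0.073, against 0.072. With the replicate block, 0 probe sets, 0 members and 0 of the other pathway genes were called, and KDM4C was at 1.27 with a limma adjusted p of 0.118. In that fit 24 members, and 3314 of all 53617 probe sets, were higher at an unadjusted p below 0.05. Averaging probe sets changed no member, as each has 1.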
